A study of Rattus norvegicus with 6 samples.

Results

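The 39 genes described here are the Wnt ligands (names beginning with Wnt), their Frizzled receptors (Fzd), the co-receptors Lrp5 and Lrp6, the R-spondins (Rspo), the secreted antagonists (Dkk, Sfrp, Frzb and Wif1) and the intracellular genes Axin1, Axin2, Ctnnb1, Lef1, Tcf7, Tcf7l1 and Tcf7l2. They were chosen by symbol from the probe sets annotated to a single gene, which gave 39 of 14217 genes and 64 of 31042 probe sets, and 17 of the 39 had several probe sets. Another 15 protein-coding rat genes with such names were not analysed here, among them Wnt3, Wnt3a, Wnt7b, Fzd7, Rspo2, Dkk1, Ror1 and Ror2. All 6 rats were of the Lewis strain, and each gave lung RNA for its own array. The silica group of 3 inhaled aerosolised Min-U-Sil 5 (6.2 mg/m3) in daily sessions of 6 hours, on 5 days of each of 6 weeks, and the control group of 3 received filtered air. The sources used here give neither age nor sex, nor when tissue was taken after the last session. In tissue RNA, fewer cells of a type and less RNA per cell cannot be told apart.

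Wnt proteins are secreted lipid-modified ligands that bind Frizzled receptors together with Lrp5 or Lrp6. In the canonical pathway this stops the complex built on Axin from degrading beta-catenin, the product of Ctnnb1, which then acts with Tcf and Lef factors in the nucleus. Dickkopf proteins act on Lrp5 and Lrp6, secreted Frizzled-related proteins and Wif1 bind the ligands themselves, and R-spondins raise the number of receptors at the cell surface. In lung, Wnt signals shape branching of the embryonic airways and maintain stem cell activity of alveolar type 2 cells in the adult.

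None of the 39 genes passed the test, in either direction, at a limma adjusted p under 0.05. Over all features 1.08% of probe sets and 1.67% of genes passed in this fit. Leaving out any single array of the 6 left 0 to 12 probe sets past the threshold (limma) and 0 of the 39 genes. Such a fit also has fewer residual degrees of freedom, so these counts cannot show which arrays the calls rest on. The smallest p-values were those of the receptor genes Fzd2 and Fzd1 and the antagonist gene Wif1, each with a mean silica signal between 0.696 and 0.767 of the control mean. At an unadjusted p under 0.05 limma gave 3 of the 39 genes (7.69%), all lower in silica, against 19.9% of all genes in either direction and 7.24% lower in silica. The groups did not overlap in 7 genes (17.9%), again all lower in silica, against 31.4% of all genes in either direction and 12.7% lower in silica. Both shares in either direction were below those of all genes, and both lower shares were close to or somewhat above them. Signals are given in the deposited linear units. Log2 fold changes are silica minus control with their SE after adding 16 to each signal, so changes of dim genes come out too small.

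The promoters of Fzd1 and Wif1 are shown because these genes had 2 of the 3 smallest p-values, and that of Axin2 because it is the standard feedback target of beta-catenin signalling. Each is 300 bases of the GRCr8 assembly from RefSeq, running from 250 before to 50 after the annotated start, on the plus strand at chr4:30264824-30265123 for Fzd1, chr7:58433329-58433628 for Wif1 and chr10:94398535-94398834 for Axin2. Capitals mark the TCF/LEF core letters CTTTGA and the GC box letters GGGCGG, searched on both strands.
Fzd1: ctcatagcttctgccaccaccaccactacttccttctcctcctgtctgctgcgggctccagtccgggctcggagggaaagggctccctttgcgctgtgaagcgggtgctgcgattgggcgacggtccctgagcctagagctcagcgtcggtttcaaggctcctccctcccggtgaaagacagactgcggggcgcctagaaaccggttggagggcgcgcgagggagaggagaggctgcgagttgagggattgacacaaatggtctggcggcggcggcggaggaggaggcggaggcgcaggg
Wif1: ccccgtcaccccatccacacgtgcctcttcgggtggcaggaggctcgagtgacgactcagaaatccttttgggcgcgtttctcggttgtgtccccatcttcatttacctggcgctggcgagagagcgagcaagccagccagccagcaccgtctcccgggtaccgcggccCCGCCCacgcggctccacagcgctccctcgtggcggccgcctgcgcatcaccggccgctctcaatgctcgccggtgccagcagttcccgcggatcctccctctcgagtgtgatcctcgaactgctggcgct
Axin2: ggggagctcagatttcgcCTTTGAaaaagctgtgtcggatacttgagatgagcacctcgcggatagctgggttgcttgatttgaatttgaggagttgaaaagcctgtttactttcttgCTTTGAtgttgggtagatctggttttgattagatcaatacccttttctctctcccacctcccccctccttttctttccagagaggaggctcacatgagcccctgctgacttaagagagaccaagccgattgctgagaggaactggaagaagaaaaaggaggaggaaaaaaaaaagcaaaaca
The Axin2 window held 2 TCF/LEF cores, that of Wif1 held 1 GC box on the minus strand, and that of Fzd1 held neither. RefSeq promoters were matched for 28 of the 39 genes, and Fzd2 was not among them. The TCF/LEF core was in 2 of the 28 windows (7.14%), those of Axin2 and Tcf7, against 14.5% of 19005 protein-coding promoters. The GC box was in 15 of 28 (53.6%) against 43.1%, and the TATA box letters TATAAA in 0 of 28 against 13.1%. The 28 windows were rich in G and C, with a median of 65.3% against 55.3% for all. A match describes letters in this window and shows no binding.

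Among the 13 Wnt ligand genes the estimates lay on both sides of 0, with a median log2 fold change of -0.01. Wnt4, a ligand of epithelial and mesenchymal development, read 1403, 1259 and 1234 on the control arrays and 1133, 1209 and 1063 on the silica arrays. It was the only ligand gene whose groups did not overlap, with a log2 fold change of -0.19 ± 0.11 (limma adjusted p = 0.411). Wnt2, a mesenchymal ligand needed for the formation of the embryonic lung, read 117, 156 and 137 in control and 55.0, 122 and 125.0 in silica. The silica array of replicate 1 stood far below the other 5, and the log2 fold change of -0.44 ± 0.29 became -0.12 without it. A further Wnt2 probe set had -0.06, and its 94.4 on that array lay within the control range. Wnt2b, a close relative of Wnt2, had 150.0 ± 18.5 in control and 127 ± 4.03 in silica (mean ± SD, n = 3). Its arrays read 157, 164 and 129 in control and 125.5, 124.8 and 132 in silica. The groups overlapped, with a log2 fold change of -0.20 ± 0.12.

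Wnt5a and Wnt5b, ligands best known for signalling without beta-catenin, had log2 fold changes of -0.01 ± 0.19 and 0.01 ± 0.13. Wnt7a, an epithelial ligand, differed between its probe sets. The brighter one read 606, 620 and 496 in control and 556, 563 and 569 in silica, a log2 fold change of -0.02 ± 0.12. The dimmer one read 147, 164 and 149 in control and 124, 116 and 105 in silica, without overlap, at -0.37 ± 0.10 (limma adjusted p = 0.168). Wnt9a had -0.11 ± 0.12. Among the 16 smallest p-values of genes not dim in both groups, the ligand genes with estimates above 0 were Wnt1 and Wnt6. Wnt1 read 74.6, 71.4 and 29.7 in control and 77.8, 57.1 and 89.6 in silica, and its 0.33 ± 0.30 came down to -0.02 when the arrays of control replicate 3 and silica replicate 1 were both left out. Wnt6 read 78.4, 76.8 and 75.0 in control and 91.9, 67.5 and 146 in silica, so the silica array of replicate 3 alone stood apart. Wnt10a, Wnt11, Wnt16 and Wnt8b were dim, meaning a mean log2 value below that of a signal of 32 in both groups, and their estimates ran from -0.38 to 0.68.

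**Figure D1:**
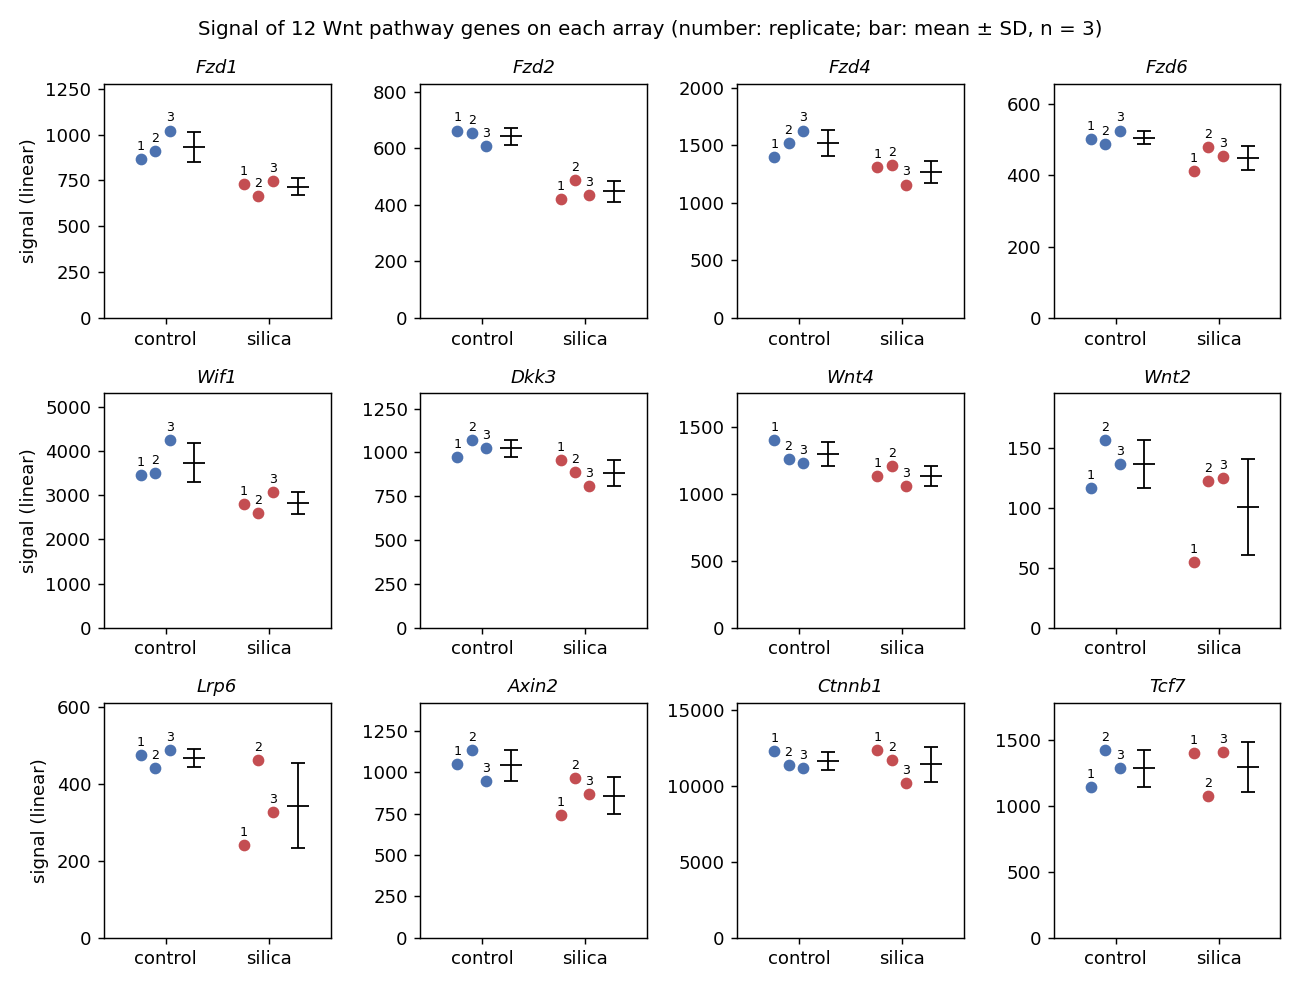
Signal of 12 genes on each of the 6 arrays, on linear axes from 0, with the replicate number beside each point and the mean ± SD of 3 animals to its right. In the Fzd1, Fzd2, Fzd4, Fzd6, Wif1, Dkk3 and Wnt4 panels every silica array lies below every control array, while in the Wnt2 and Lrp6 panels the silica array of replicate 1 lies apart (55.0 and 242).

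The Frizzled genes encode the membrane receptors of the pathway, and 4 of the 7 measured had silica arrays wholly below control, where 12.7% of all genes did. Fzd2 read 663, 656 and 608 in control and 419, 488 and 435 in silica. Its highest silica array was below its lowest control array by more than the SD of either group (29.6 in control and 36.3 in silica). The log2 fold change was -0.51 ± 0.10, with an interval (95%) from -0.76 to -0.25. Its limma adjusted p of 0.0962 was the smallest of the 39 genes. Fzd1 read 865, 912 and 1022 in control and 733, 664 and 749 in silica. The groups were apart, at -0.37 ± 0.11 (limma adjusted p = 0.181). Fzd4, which also serves as the receptor for norrin in blood vessels, read 1402, 1525 and 1629 in control and 1315, 1327 and 1160 in silica, at -0.26 ± 0.11 (limma adjusted p = 0.305). A dimmer Fzd4 probe set overlapped between groups, with -0.02 ± 0.18.

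Fzd6, a receptor of planar polarity, read 503, 489 and 525 in control and 413, 480.1 and 453 in silica, which gave -0.17 ± 0.10 with narrowly separate groups. Fzd8 lay on the other side of 0 at 0.07 ± 0.13, with silica values of 707 to 853 that overlapped its control values of 676 to 806. Fzd3 read 60.8, 12.4 and 59.6 in control and 67.4, 56.1 and 52.6 in silica. Its log2 fold change of 0.44 ± 0.40 was set by the single control array of replicate 2. Without that array its log2 fold change was -0.03. Fzd5 was dim throughout. Estimates of the receptor genes thus lay on both sides of 0, and the difference between receptors was not tested.

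Lrp6, the co-receptor that is phosphorylated when a Wnt binds, read 474, 442 and 488 in control and 242, 463 and 326 in silica. Of the silica arrays 2 were below every control array and the array of replicate 2 was inside the control range, so the estimate of -0.47 ± 0.23 (limma adjusted p = 0.346) moved to -0.70 without silica replicate 2 and to -0.26 without silica replicate 1. Its relative Lrp5 read 158, 226 and 203 in control and 166, 188 and 224 in silica, with a log2 fold change of -0.02 ± 0.17 that changed sign under 6 of 17 alternatives. The R-spondin genes gave little signal. Rspo3 read 44.3, 46.5 and 56.9 in control and 18.3, 56.2 and 47.2 in silica, and Rspo1 was dim.

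Of the 8 secreted antagonist genes, 7 had estimates below 0, and the exception, Sfrp5, was dim in both groups. Wif1, which binds Wnt ligands outside the cell, read 3462, 3512 and 4242 in control and 2795, 2588 and 3075 in silica. All silica arrays were below all control arrays, at -0.40 ± 0.13 with a 95% interval from -0.71 to -0.09. The limma adjusted p was 0.1998. Dkk3, a divergent Dickkopf gene, read 974, 1069 and 1026 in control and 956, 888 and 806 in silica, at -0.21 ± 0.11. A dimmer Dkk3 probe set had 0.70 ± 0.38, and those dim in both groups had -0.17 ± 0.21 and -0.23 ± 0.43. The mean over all Dkk3 probe sets, the dim ones included, was 0.02. Dkk2 was near the dim limit and read 44.8, 29.0 and 30.8 in control and 12.4, 30.3 and 17.9 in silica. Its groups overlapped, and its -0.51 ± 0.22 depended on the pseudocount, from -0.82 with 1 to -0.23 with 64.

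The secreted Frizzled-related genes overlapped between groups throughout. Sfrp1 read 214, 173 and 238 in control and 163, 190.1 and 197 in silica, at -0.16 ± 0.15. Sfrp2, a fibroblast product, spread widely among control animals (365, 292 and 690 against 347, 365 and 512 in silica) and gave -0.06 ± 0.33. Both Sfrp2 probe sets were highest in the control animal of replicate 3. Frzb had -0.08 ± 0.19 and Sfrp4 -0.31 ± 0.47.

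**Figure D2:**
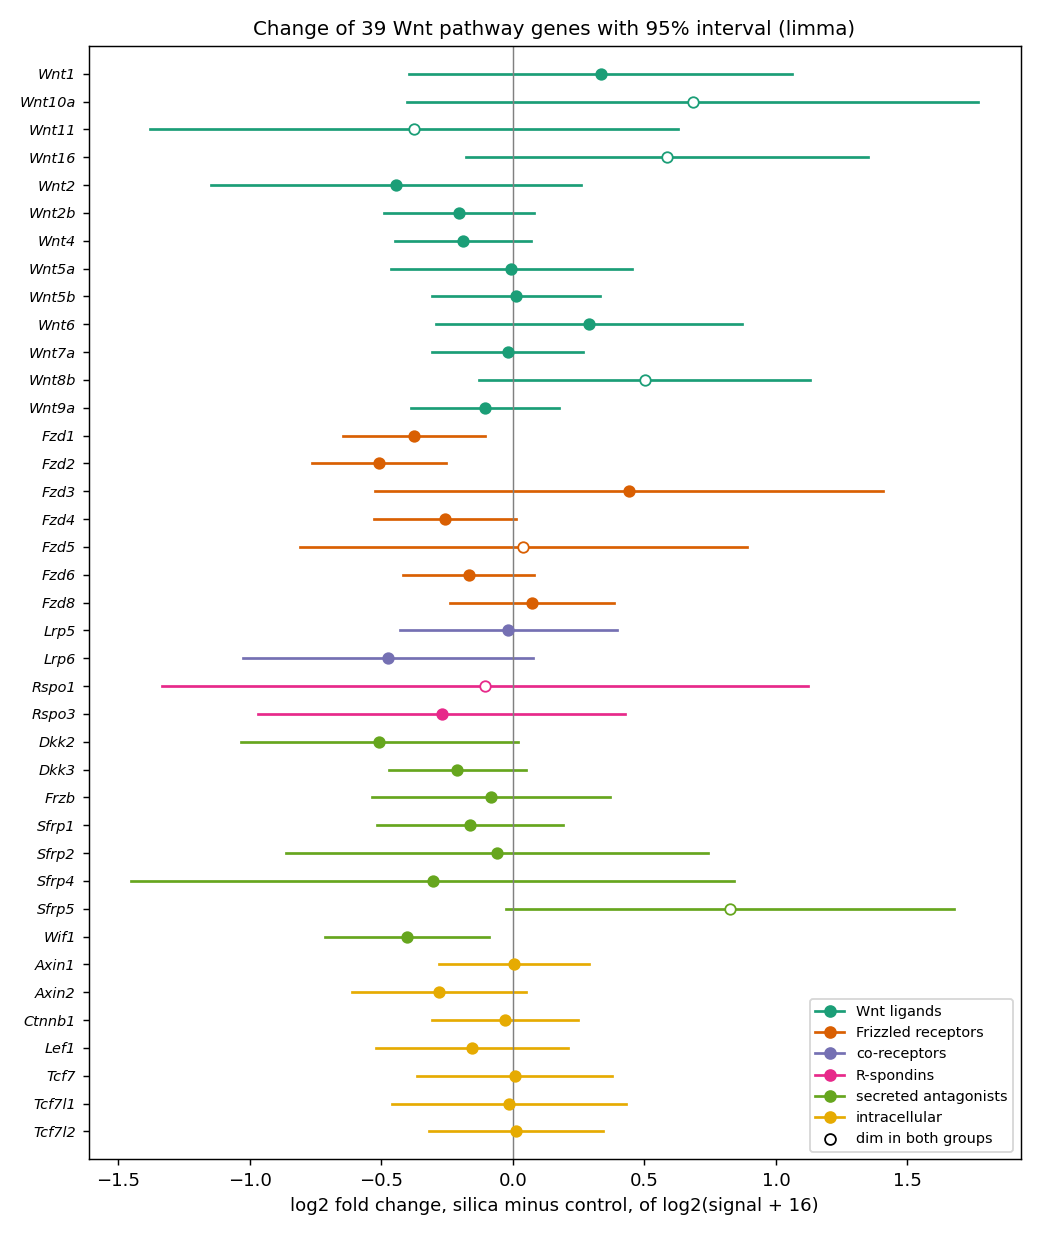
Log2 fold change of silica minus control with its 95% interval from limma for all 39 genes by brightest probe set, coloured by family, with open circles for genes dim in both groups. The intervals of Fzd2, Fzd1 and Wif1 lie wholly below 0, at centres of -0.51, -0.37 and -0.40, and no interval lies wholly above 0.

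Beta-catenin mRNA overlapped between the groups. The brightest Ctnnb1 probe set read 12266, 11389 and 11158 in control and 12338, 11710.1 and 10149.6 in silica, at -0.03 ± 0.11 with a 95% interval from -0.31 to 0.25. Another probe set gave -0.18 ± 0.11 and a further one -0.31 ± 0.18, each with overlapping groups. Axin1, the scaffold of the degradation complex, had 0.00 ± 0.12. Axin2, which is induced by beta-catenin and limits it, read 1050.1, 1135 and 946 in control and 741, 965 and 871 in silica. A single pair of arrays overlapped (946 in control and 965 in silica), and the estimate of -0.28 ± 0.14 (95% interval -0.61 to 0.05, limma adjusted p = 0.354) did not pass.

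The Tcf and Lef genes encode the DNA-binding partners of beta-catenin. Tcf7 read 1139, 1420 and 1284 in control and 1397, 1070.1 and 1409 in silica, at 0.01 ± 0.15, and Lef1 read 327, 290.5 and 282 in control and 266, 319 and 223 in silica, at -0.16 ± 0.15. A dimmer Lef1 probe set was lower on every silica array (182, 206 and 185 against 156, 169 and 142), at -0.27 ± 0.11. Tcf7l1 had -0.02 ± 0.18 in its brighter probe set and -0.38 ± 0.12 in its dimmer one, whose groups were apart. Tcf7l2 had 0.01 ± 0.14, and its 4 further probe sets lay between -0.11 and 0.16.

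Tcf7 and Lef1 are also transcribed in T cells. Of 12 T cell marker genes 7 rose past the threshold in the same fit and none fell, where 1.67% of all genes passed in either direction. Their median log2 fold change was 0.93, with 10 estimates above 0 and 2 below. Those below were Cd4 (-0.01 ± 0.32) and Cd28 (-0.20 ± 0.17). With the replicate number as a block a single probe set on the whole array passed, so at most 1 of these 7 calls could hold in that fit. The summed signal of the 12 T cell markers was 3385 to 3936 over control arrays and 6753 to 8195 over silica arrays, and none of the 12 was dim in both groups. Lck, a T cell kinase, read 769, 815 and 857 in control and 1444, 1402 and 1677 in silica (limma adjusted p = 0.0405). Cd3g, part of the T cell receptor complex, had 736 ± 71.4 in control and 1426 ± 192 in silica (limma adjusted p = 0.0470). The difference in change between these markers and Tcf7 or Lef1 was not tested.

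**Figure D3:**
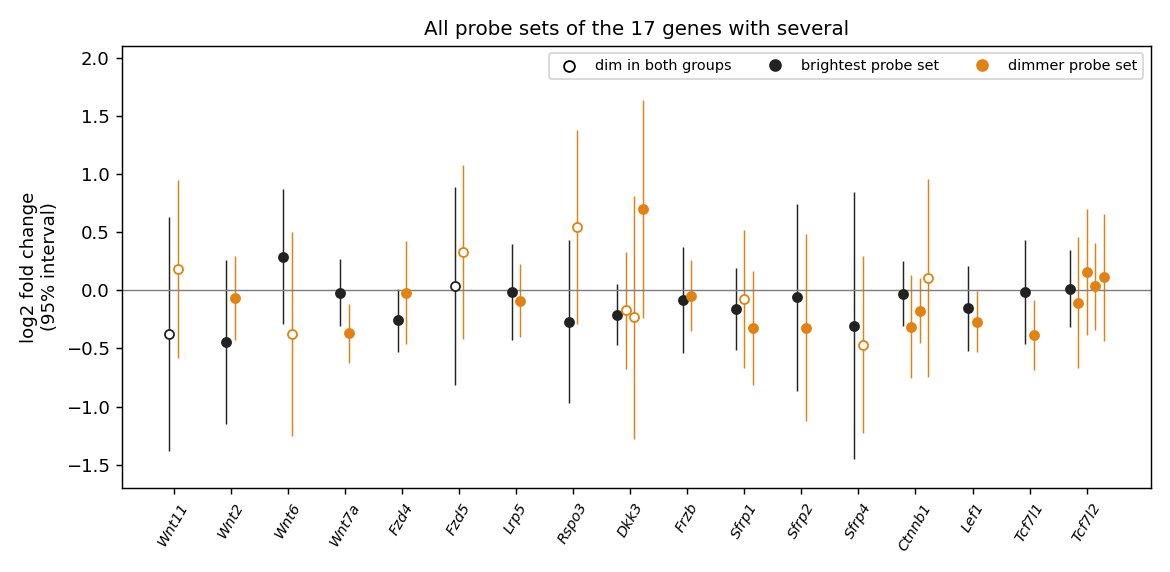
Log2 fold change with 95% interval for every probe set of the 17 genes with several, the brightest in black, dimmer ones in orange, and open circles for probe sets dim in both groups. Dimmer probe sets of Wnt7a, Tcf7l1 and Lef1 lie wholly below 0 (-0.37, -0.38 and -0.27) while the brightest ones of the same genes span 0.

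Of the 25 dimmer probe sets 16 were not dim in both groups, and 14 of these had the sign of the gene's brightest probe set. At an unadjusted p under 0.05 there were 3 dimmer probe sets, those of Wnt7a, Tcf7l1 and Lef1, all lower in silica. In none of these genes did the brightest probe set reach that level. The files do not give the transcript part that each probe set reads.

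Taking the 32 genes that were not dim in both groups, 24 (75%) had estimates below 0, with a median log2 fold change of -0.13. Over the 12316 genes not dim in both groups 45.8% were below 0, with a median of 0.02. The 7 dim genes had a median of 0.50 and single arrays between 2.3 and 53.3, so their estimates describe signals near the floor of the scale. Precision differed between genes. The 95% interval lay within 0.5 of 0 on the log2 scale for 15 of the 39 genes and within 1 for 27 of them.

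**Figure D4:**
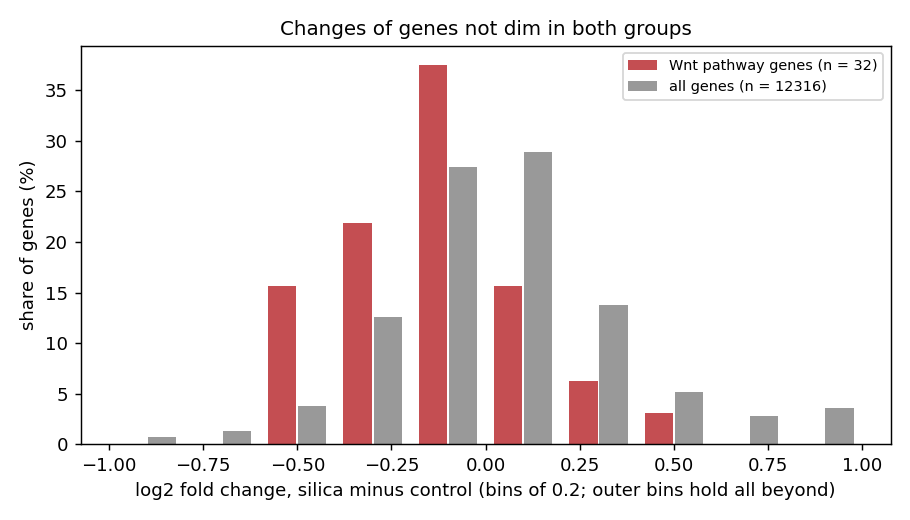
Share of genes in bins of log2 fold change, for the 32 Wnt pathway genes (red) and the 12316 genes of the array (grey) that were not dim in both groups. In each bin from -0.6 to 0 the share of the Wnt genes is larger than that of all genes, and none of the 32 lies beyond -0.51 or 0.44.

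RNA quality also differed between the arrays and partly followed the groups. Its part in this tilt therefore cannot be told apart from that of silica. The ratio of 3-prime to 5-prime signal of the beta-actin control probe sets was 4.32, 4.18 and 3.50 in control and 6.07, 5.22 and 3.79 in silica, where a higher ratio goes with shorter RNA or cDNA. The median of all 39 genes, the 7 dim ones included, relative to the control means was -0.18, -0.09 and -0.04 on silica arrays 1, 2 and 3. With the mean log2 ratio of beta-actin and GAPDH as a covariate the 32 genes not dim in both groups had a median of -0.09 with 18 below 0, in place of -0.13 with 24 below 0, and the median of all 39 went from -0.08 to 0.03. Without the 2 arrays at the ends of the ratio, control replicate 3 and silica replicate 1, the 32 genes had a median of -0.10 with 22 below 0. Fzd2 had -0.53 in that fit and -0.50 without these 2 arrays. Fzd1 had -0.29 and -0.33, and Wif1 had -0.25 and -0.30. Wnt2 had -0.04 and -0.12. No probe set on the array passed with this covariate or without these 2 arrays (limma), where 3184 and 3590 had an unadjusted p under 0.05. The summed signal of the added dap, lys, phe and thr control transcripts was also low on silica arrays 1 and 3 (9050.3 and 11163) against 18627 to 26257 on the other 4. Its part in these results was not tested.

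The call on Fzd2 depended on the setting, although its estimate stayed between -0.57 and -0.46 in all 17 alternatives. It passed with the dimmer 50% of probe sets left out (limma adjusted p = 0.0154), with an intensity trend and robust spread (0.0180), with a pseudocount of 64 (0.0412) and when a gene's probe sets were averaged (0.0430), and adjusted p ranged up to 0.365. Fzd1 passed in 1 alternative (0.0476, dimmer 50% left out) and Wif1 in 1 (0.0373, intensity trend). Over all probe sets 10.8% passed with the dimmer 50% left out, where 23 of the 39 genes were measured, and 6.00% with the trend. With a pseudocount of 64 the share was 2.96%, and with probe sets averaged 3.94% of genes passed. With the replicate number as a block, a pairing that the labels do not state, 1 probe set of 31042 passed and 0 of the 39 genes. At an unadjusted p under 0.05 (limma) that fit gave 4 of the 39 lower and 1 higher, where 5190 of the 31042 probe sets reached that level.

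**Figure D5:**
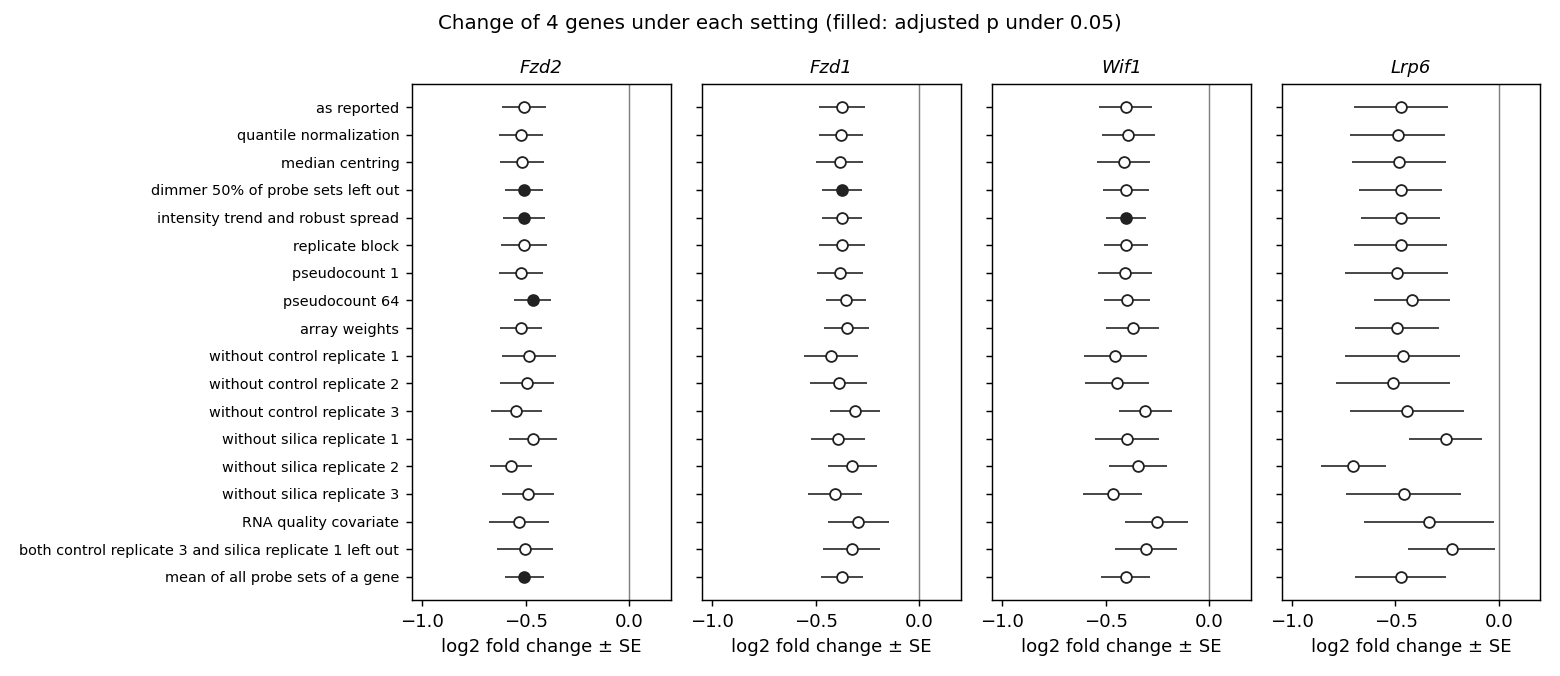
Log2 fold change ± SE of Fzd2, Fzd1, Wif1 and Lrp6 as reported and under each alternative setting, filled where the limma adjusted p was under 0.05. Estimates of Fzd2 stay between -0.57 and -0.46, while those of Lrp6 run from -0.70 to -0.23 and are never filled.

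Genes around the pathway's core gave 0 passing members in every list examined. In lists of 6 to 15 genes this is near the 1.67% of all genes that passed. Over all genes 46.3% of the estimates were below 0. Of 6 genes for secretion and processing of the ligands, Wls, the carrier that brings Wnt proteins to the cell surface, read 898, 823 and 873 in control and 590, 559 and 665 in silica. Its groups were apart and it had -0.51 ± 0.11 (limma adjusted p = 0.101). For Porcn, which attaches the lipid to Wnt, the silica mean was 0.998 of the control mean. Sulf1, which trims heparan sulfate around the ligands, had -0.26 ± 0.17 with overlapping groups. The list had 5 of 6 estimates below 0 and a median of -0.16. Of 9 genes for receptor turnover and co-receptors, Tspan12, a partner of Fzd4 in norrin signalling, read 4824, 4502 and 5191 in control and 3808, 2908 and 3734 in silica (-0.48 ± 0.14, limma adjusted p = 0.177). Lgr6, an R-spondin receptor gene, was higher on every silica array, from 97.2 ± 12.9 to 162 ± 26.6 (0.65 ± 0.15, limma adjusted p = 0.121), and the other 8 had estimates below 0, with a list median of -0.25.

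A further list of 7 genes held mostly antagonists, but also Ndp, the norrin gene, whose product is a ligand of Fzd4. In it Sostdc1, a gene for a secreted antagonist of BMP and Wnt, had 85.1 ± 8.30 in control and 51.3 ± 6.90 in silica (-0.59 ± 0.12, limma adjusted p = 0.0992). Bambi, which blocks TGF-beta receptors, had -0.62 ± 0.18 (limma adjusted p = 0.174). The median of this mixed list was -0.01. Of 14 Dishevelled and degradation complex genes, Gsk3a, a kinase of the complex, had 0.54 ± 0.16 and Apc, its scaffold, -0.25 ± 0.10, with 7 estimates on each side of 0. Of 14 nuclear partner genes the smallest p belonged to the corepressor genes Tle2 (-0.24 ± 0.09) and Tle3 (0.37 ± 0.16), with a median of 0.03. Of 15 planar polarity and noncanonical genes, Prickle2 had -0.39 ± 0.10 and Nfatc1, a calcium-responsive transcription factor gene, 0.29 ± 0.10. In that list 10 of 15 were below 0, against 46.3% of all genes.

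The 15 measured genes widely used as Wnt targets, 3 of which are among the 39, had 7 estimates above 0 and 8 below, with a median of -0.01. Cd44, a hyaluronan receptor gene, read 2165, 2156 and 2188 in control and 2636, 2800.0 and 2947 in silica (0.36 ± 0.09, limma adjusted p = 0.147), with groups apart. Mmp7, a matrix protease gene, was at 2.3 to 6.2 in control and 11.8, 63.3 and 60.9 in silica (1.45 ± 0.41, limma adjusted p = 0.168). Nkd2 and Znrf3, feedback inhibitor genes, had -0.32 ± 0.12 and -0.30 ± 0.15. Nkd1, another feedback inhibitor gene, had -0.21 ± 0.13, while Apcdd1, listed here both as a target and as an antagonist, had -0.01 ± 0.11. Myc and Ccnd1, which many other signals also induce, had 0.21 ± 0.12 and 0.17 ± 0.13. None of the 15 passed the threshold.

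Marker genes placed these values within the tissue. The alveolar type 2 markers Sftpa1 and Sftpc were bright on every array (19546 to 29019), which matches the labelled lung. Alveolar type 1 markers were lower on the silica arrays in 6 of 7 genes with no overlap, where 12.7% of all genes were. None of the 7 passed, where 1.67% of all genes did. They had a median of -0.29 and a summed signal of 82728 to 87647 in control and 68539 to 73330.1 in silica. Hopx and Ager, the brightest of them, had -0.19 ± 0.09 and -0.24 ± 0.09. Fibroblast markers had a median of -0.03, with 4 estimates above 0 and 4 below, and sums of 22869 to 31245 and 23386 to 25936. Airway markers had a median of -0.30, endothelial markers -0.14, smooth muscle markers 0.01 and mesothelial markers -0.14. Among 5 macrophage markers 1 passed, Cd68, higher in silica, and all 5 estimates were above 0. The list median was 0.62, with sums of 9749 to 10400.3 in control and 12663 to 14181 in silica. Of 8 dividing cell markers 3 passed, all higher in silica, Mki67 (1.65 ± 0.14), Top2a (1.11 ± 0.16) and Bub1 (1.18 ± 0.15). The list median was 1.08, and 1 of the 8, Aurkb, was below 0 (-0.15 ± 0.18). These marker calls, like those of T cells, were made without the replicate block, under which 1 probe set passed in all. The markers of B cells, neutrophils and cardiac muscle had medians of 0.07, 0.65 and 0.00, and none passed. Their part in the values of Fzd2, Fzd1, Wif1 and the other Wnt genes was not tested.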

How the data were processed

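Whole-lung RNA of 6 rats was measured on 1-colour arrays, with 3 animals per group by the sample titles. Per the labels' protocols, RNA was extracted with a phenol reagent and biotin-labelled cRNA was made. The authors deposited 1 linear intensity per probe set and array. The software and filters behind them, not given in the sources used here, remain unknown. Every array had a mean of 500.14 to 500.15 after trimming 2% at each end, as 1 scaling factor per array would give, which keeps differences in shape between arrays.

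Of 31099 probe sets 57 array controls were set aside. Names came from the platform annotation, updated by gene identifier through RefSeq (GRCr8): 20826 probe sets had 1 gene (20758 matched), 436 several and 9780 were not listed. The brightest probe set by mean log2 value stood for a gene. Values were log2(signal + 16). The fit was limma 3.58.1 in R 4.3.3 on group alone, 4 residual and 2.18 prior degrees of freedom, Benjamini-Hochberg over 31042 probe sets. Exact permutation of 3 against 3 cannot go below 0.1. The fit was tested on simulated arrays.

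Same-numbered arrays deviated together weakly (correlations 0.22, 0.15 and 0.28 over the brighter 50% of probe sets), and the labels state no pairing. The reported fit was on group alone, with the replicate number as a block only among the alternatives. The 3-prime to 5-prime ratio of beta-actin also fell from replicate 1 to 3 in both groups. Pairing and such a shared order cannot be told apart here. The pathway genes and lists were chosen with earlier results of these data known. Values per array were given for genes past the threshold, the 16 not dim with the smallest p, Axin2, Ctnnb1, Lef1, Tcf7, Lrp5 and Lrp6, and other genes were named by family. Outside this rule, values per array were also given for Rspo3, Sfrp2 and Wnt7a. Pathway lists were shown by genes past the threshold or the 2 of smallest p. Marker lists were shown by a median or the 2 brightest, some also by summed signal or the genes past the threshold. Nkd1, Nkd2, Znrf3, Apcdd1, Ndp, Myc, Ccnd1 and Porcn, and the dimmer probe sets shown, were named after their values were seen. The number of arrays limits precision.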

Additional observations from a re-analysis of the deposited data

How the results depend on the processing

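Of 334 comparisons of 20 named genes with their alternatives, 309 kept direction and side of the threshold, 6 came to pass and 19 changed sign, where the cause was not tested. The members called lower were 2 of the 23 measured with the dimmer 50% left out, which tests fewer probe sets, where 10.8% of probe sets passed. With an intensity trend they were 2, where 6% of probe sets passed. With pseudocount 64 or the mean of all probe sets there was 1, where 2.96% of probe sets and 3.94% of genes passed, otherwise 0. The member median of -0.08 lay between -0.17 and -0.051 with 1 array left out and was 0.030 with the RNA quality covariate. Probe sets called higher and lower (290 and 45) were 1044 and 631 with the dimmer 50% left out, 1141 and 721 with the trend, 1 and 0 with the replicate block, 39 and 4 with pseudocount 1, 707 and 212 with pseudocount 64, 0 and 0 with the covariate or without control replicate 3 and silica replicate 1, and 0 to 12 and 0 to 0 with 1 array left out. Sign changes were of Tcf7 with median centring (-0.0038) and without control replicate 3 and silica replicate 1 (-0.050), where Lrp5 had 0.11, Sfrp1 0.0043 and Wnt1 -0.018. Lrp5 also had 0.026 with array weights and 0.20 with the covariate, where Sfrp1 had 0.0032. With the mean of all probe sets Wnt6 had -0.042 and Dkk3 0.021. With 1 array left out Tcf7 ranged from -0.074 to 0.14, Ctnnb1 from -0.089 to 0.052, Lrp5 from -0.15 to 0.085 and Fzd3 from -0.034 to 0.68. Among the 39 genes 7 were dim in both groups, which limits what their estimates can show.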
